A study of Mus musculus with 8 samples.

Results

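The COMMD proteins are a family of small proteins that share a COMM domain at the carboxyl end, and their mRNA levels were compared between distal convoluted tubules (DCT) of TBC1D4-deficient and wild-type mouse kidneys. The family was listed as 10 genes, Commd1 to Commd10, and a gene counted as measured where the array annotation gave it a probe set with exactly 1 gene symbol. Of the 10 genes, 9 were measured, by 1 probe set each, out of 18782 genes measured in this way. Commd1 had no such probe set and is not analysed here. The family was chosen by the measured log2 difference of Commd6 between genotypes on these arrays and by the place of this gene, the nearest protein-coding neighbour of Tbc1d4 on one side on chromosome 14. The other members follow by family name, not by their values. The values of Commd6 in this comparison are therefore a description, given without a test, and the question is whether the rest of the family moved with it.

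The study held 8 arrays of kidney tubules from male C57/Bl6 mice aged 8 weeks, 4 TBC1D4-deficient and 4 wild-type. Mice of both genotypes also carried a transgene for the fluorescent protein EGFP driven by the parvalbumin promoter, PV-EGFPwt/tg, and the fluorescent tubules were collected with a sorter for large particles (COPAS). TBC1D4 is a GTPase-activating protein for Rab GTPases that restrains the delivery of GLUT4 vesicles to the plasma membrane. The labels do not say whether each array came from 1 animal or from a pool, so p-values and intervals measure the spread between these samples.

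COMMD proteins assemble into a ring that joins CCDC22 and CCDC93 in the CCC complex, which works together with Retriever on endosomes. Retriever, built from VPS35L, VPS26C and VPS29, carries membrane proteins such as integrins and LDL receptor relatives back to the cell surface and away from lysosomes. COMMD1 is the best known member, for its part in copper export through ATP7B, in shutting off NF-kappaB and in lowering the surface level of the epithelial sodium channel. COMMD6 is the shortest member and consists of little more than the COMM domain.

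Promoter windows were available in the RefSeq table (GRCm38.p6) for 7 of the 10 genes, in 8 windows that each run from 250 bases before to 50 bases after a start site. They are shown so that the start region of Commd6, the gene picked for its difference, can be read beside those of other members. A link between these windows and expression was not tested. In the window of Commd6, chr14:101640422-101640721 on the minus strand, capitals mark CCGGAAG, a core sequence bound by ETS factors. In the windows of Commd3 (chr2:18672185-18672484, plus strand), Commd8 (chr5:72168140-72168439, minus strand) and Commd9 (chr2:101886012-101886311, plus strand), capitals mark CACGTG, the E-box bound by USF and by the TFE family of lysosomal regulators.
Commd6: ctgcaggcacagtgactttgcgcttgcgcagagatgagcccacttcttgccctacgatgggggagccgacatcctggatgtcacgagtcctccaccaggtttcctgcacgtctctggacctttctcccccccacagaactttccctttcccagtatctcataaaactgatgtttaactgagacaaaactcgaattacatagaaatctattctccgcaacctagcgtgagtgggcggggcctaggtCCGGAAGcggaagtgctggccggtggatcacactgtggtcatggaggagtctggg
Commd3: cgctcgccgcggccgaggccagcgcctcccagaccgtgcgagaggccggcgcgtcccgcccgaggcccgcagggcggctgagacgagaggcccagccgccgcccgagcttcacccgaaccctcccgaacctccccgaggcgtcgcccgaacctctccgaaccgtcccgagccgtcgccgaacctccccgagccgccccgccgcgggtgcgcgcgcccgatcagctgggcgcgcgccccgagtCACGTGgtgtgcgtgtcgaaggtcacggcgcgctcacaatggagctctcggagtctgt
Commd8: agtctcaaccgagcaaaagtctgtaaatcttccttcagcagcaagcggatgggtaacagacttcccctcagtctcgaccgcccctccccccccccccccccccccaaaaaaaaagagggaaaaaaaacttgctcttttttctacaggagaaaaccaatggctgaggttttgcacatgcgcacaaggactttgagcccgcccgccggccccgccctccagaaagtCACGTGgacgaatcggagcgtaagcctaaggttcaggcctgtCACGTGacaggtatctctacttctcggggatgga
Commd9: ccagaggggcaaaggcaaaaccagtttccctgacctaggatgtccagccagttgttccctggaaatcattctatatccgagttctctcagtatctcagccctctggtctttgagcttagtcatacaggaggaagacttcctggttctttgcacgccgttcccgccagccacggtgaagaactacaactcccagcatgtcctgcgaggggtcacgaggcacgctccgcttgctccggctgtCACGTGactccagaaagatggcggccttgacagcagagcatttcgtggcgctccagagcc

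Motifs were searched on both strands, and they were picked after the windows had been read, so the matches are descriptions. CACGTG, which is its own reverse complement, was found in the windows of 3 members (Commd3, Commd8 and Commd9), and in 7.15% of all 32851 windows. Commd8 held 2 copies. CCGGAAG or its reverse complement was found for Commd4 and Commd6, and in 8.86% of all windows. In Commd6 it began 5 bases before the annotated start, and in Commd4 9 bases before. GGGCGG, the core of the GC box bound by SP1, was found for 5 members (Commd1, Commd3, Commd4, Commd6 and Commd8) and in 35.7% of all windows. These motifs do not overlap one another in the letters printed.

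Values are probe set intensities, compared after log2 transformation. Tbc1d4 itself was 2.48, 2.72, 2.50 and 2.21 on the log2 scale in the 4 TBC1D4-deficient arrays, against 6.69, 6.79, 6.58 and 6.94 in the 4 wild-type arrays, so each array matched its label. Of 23039 probe sets with a gene symbol, Tbc1d4 was the 1 that passed a limma adjusted p of 0.05, a background of 0.00434%. All 9 measured markers of the DCT, among them Slc12a3, Pvalb and Trpm6, lay above the median level of the probe sets. So did all measured markers of the proximal tubule (12), thick ascending limb (5) and intercalated cells (6). This level therefore does not set the DCT apart from those segments. The sample descriptions begin with numbers from 5 to 12 of unstated meaning. The arrays numbered 5 to 8 and those numbered 9 to 12 hold 2 of each genotype, and differences are given within each set.

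Commd6 mRNA was more abundant in the TBC1D4-deficient tubules, with no overlap between genotypes. Its intensity was 233.5, 222.7, 212.2 and 203.2 in TBC1D4-deficient replicates 1 to 4, against 169.3, 167.4, 164.6 and 176.3 in wild-type replicates 1 to 4. The lowest TBC1D4-deficient array stood clear of the highest wild-type array, replicate 4. On the log2 scale Commd6 averaged 7.77 ± 0.09 in TBC1D4-deficient and 7.40 ± 0.04 in wild-type arrays (SD, n = 4 each). That is a 1.28-fold level, with a limma 95% interval of 1.17 to 1.42. On the log2 scale the difference was 0.32 in the set numbered 5 to 8 and 0.40 in the set numbered 9 to 12. Among 18782 genes, each taken by its brightest probe set, 17 had a difference as high as that of Commd6 or higher, Commd6 included. In either direction, 102 had a difference at least as large in size. Groups that do not overlap in the upward direction were found for 0.942% of all probe sets.

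A difference of that size was not measured in any of the 8 relatives of Commd6. Of these, 0 passed the threshold (limma adjusted p = 0.9999 for each), and 0 had an unadjusted limma p below 0.05, against 2.9% of all probe sets. Tbc1d4 was the 1 probe set of the whole table that passed, so the threshold does not part Commd6 from its relatives. The groups overlapped in each of the 8 relatives, and they were separated in either direction for 1.85% of all probe sets. The counts of relatives with a low unadjusted p and with separated groups, 0 each, are thus near the background. Their log2 differences ran from -0.10 for Commd2 to 0.08 for Commd7, with 6 above and 2 below 0. Their median was 0.02, beside -0.00074 over all 18782 genes. The 95% interval lay inside 1.5-fold for each of the 8, as it did for 97.5% of all genes. In each of the 8 the interval also ended below 0.36, the log2 difference of Commd6. Commd6 was picked as high, and only 17 of 18782 genes reached its difference in the upward direction, itself included. An interval that ends below it is therefore the usual case, and the share of all genes with such an interval was not counted. For 4 of the relatives, Commd2, Commd3, Commd4 and Commd9, the interval ended below the lower limit of the Commd6 interval, 0.22. This limit too comes from a gene picked as high, and the share of all genes below it was not counted. Differences between Commd6 and its relatives were not tested, since Commd6 had been picked for its value.

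**Figure D1:**
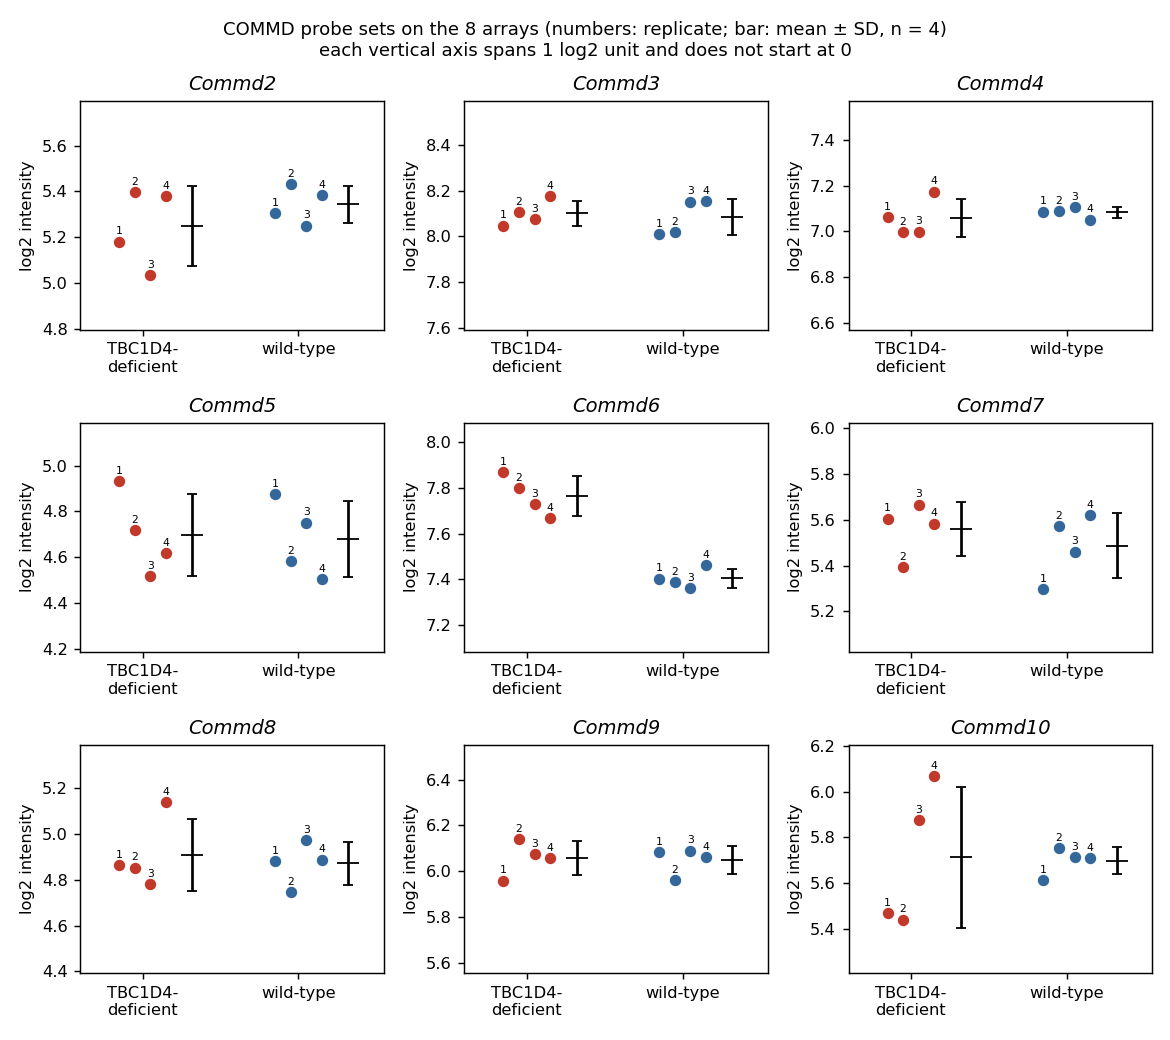
Log2 intensity of the 9 measured COMMD probe sets (vertical axis, spanning 1 log2 unit in each panel) in the 4 TBC1D4-deficient arrays (left, red) and the 4 wild-type arrays (right, blue), with the replicate number at each point and the mean ± SD beside it. The groups are separated for Commd6 and overlap in the 8 other panels, and the TBC1D4-deficient arrays of Commd10 fall into a lower and a higher pair.

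Commd3, Commd4 and Commd9 gave the closest replicates among the relatives. Commd3, whose protein acts with COMMD8 in signalling by chemokine receptors of B cells, measured 8.05, 8.11, 8.07 and 8.18 on the log2 scale in TBC1D4-deficient arrays, against 8.01, 8.02, 8.15 and 8.16 in wild-type arrays. Its log2 difference was 0.02 (95% interval -0.12 to 0.16), and each group spanned most of the range of the other. Commd4 measured 7.06, 7.00, 7.00 and 7.17 in TBC1D4-deficient arrays, against 7.09, 7.09, 7.11 and 7.05 in wild-type arrays. The highest and the lowest of its arrays were both TBC1D4-deficient, and the log2 difference was -0.03 (-0.16 to 0.11). Commd9, which has been linked to the recycling of Notch receptors, measured 5.96, 6.14, 6.07 and 6.06 in TBC1D4-deficient arrays, against 6.08, 5.96, 6.09 and 6.06 in wild-type arrays. The lowest array of each group stood at 5.96, and the log2 difference was 0.0086 (-0.13 to 0.15).

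Commd2 had the lowest difference and Commd7 the highest among the relatives. Commd2 measured 5.18, 5.40, 5.03 and 5.38 on the log2 scale in TBC1D4-deficient arrays, against 5.31, 5.43, 5.25 and 5.38 in wild-type arrays. TBC1D4-deficient replicates 1 and 3 were below all wild-type arrays while the other two lay among them, and the log2 difference was -0.10 (95% interval -0.29 to 0.10). It was below 0 in both number sets, at -0.13 within 5 to 8 and -0.06 within 9 to 12. Commd7, which like COMMD1 restrains NF-kappaB in cultured cells, measured 5.61, 5.39, 5.67 and 5.58 in TBC1D4-deficient arrays, against 5.30, 5.57, 5.46 and 5.62 in wild-type arrays. TBC1D4-deficient replicate 3 was above the wild-type range and the other three within it, and the log2 difference was 0.08 (-0.12 to 0.27).

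Commd5 and Commd8 overlapped widely between genotypes. Commd5, first described as the hypertension-related, calcium-regulated gene HCaRG of the kidney, measured 4.93, 4.72, 4.52 and 4.62 on the log2 scale in TBC1D4-deficient arrays, against 4.87, 4.58, 4.75 and 4.51 in wild-type arrays. Its groups covered nearly the same range, and the log2 difference was 0.02 (95% interval -0.22 to 0.25). It was -0.10 in the set numbered 5 to 8 and 0.14 in the set numbered 9 to 12. Commd8, whose protein is bound by CCDC22, measured 4.87, 4.85, 4.78 and 5.14 in TBC1D4-deficient arrays, against 4.88, 4.75, 4.97 and 4.89 in wild-type arrays. TBC1D4-deficient replicate 4 was its highest array, the other three lay within the wild-type range, and the log2 difference was 0.04 (-0.16 to 0.23).

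Commd10 had the largest spread, and it lay within the TBC1D4-deficient group. It measured 5.47, 5.44, 5.87 and 6.07 on the log2 scale in TBC1D4-deficient replicates 1 to 4, against 5.61, 5.75, 5.72 and 5.71 in wild-type replicates 1 to 4. Replicates 1 and 2 of the TBC1D4-deficient group were below every wild-type array and replicates 3 and 4 above every one, so the standard deviation was 0.31 in TBC1D4-deficient and 0.06 in wild-type arrays. The group means, 5.71 and 5.70, differed by 0.02 (95% interval -0.28 to 0.31). The low pair belongs to the arrays numbered 9 to 12 and the high pair to those numbered 5 to 8. Within 5 to 8 the log2 difference was 0.24 and within 9 to 12 it was -0.21. The difference between these sets was not tested.

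**Figure D2:**
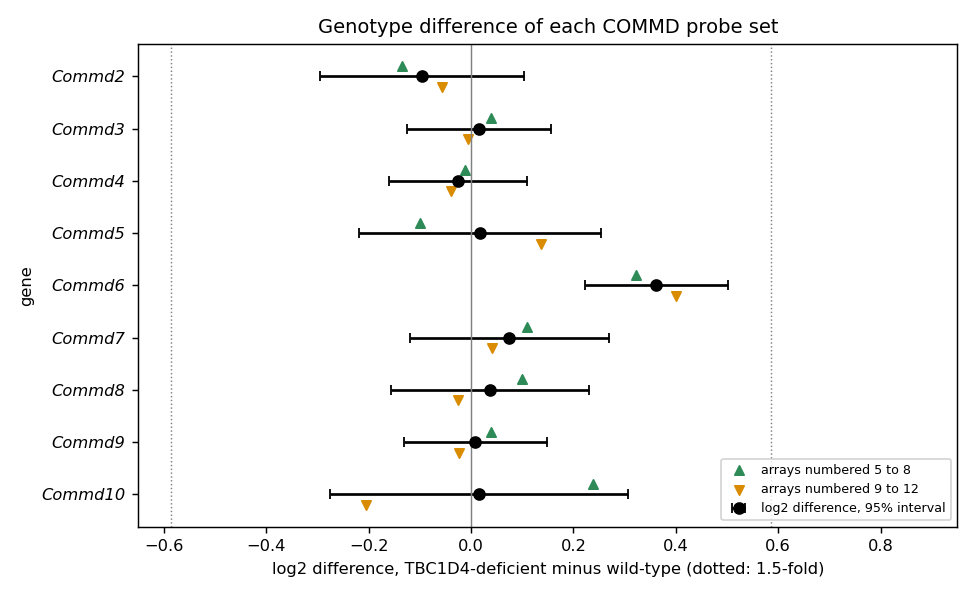
Log2 difference (TBC1D4-deficient minus wild-type, horizontal axis) of each COMMD gene (vertical axis) with its limma 95% interval, and the differences within the arrays numbered 5 to 8 (upward triangles) and 9 to 12 (downward triangles). The interval of Commd6 runs from 0.22 to 0.50, the 8 other intervals include 0, and the sets lie on opposite sides of 0 for Commd3, Commd5, Commd8, Commd9 and Commd10.

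Members showed little common variation across the arrays. Over the 36 pairs of measured members, Pearson's r of the log2 deviations from the genotype means had a median of 0.02 and was above 0 in 19. It ranged from -0.83, between Commd6 and Commd10, to 0.81, between Commd4 and Commd8. These coefficients rest on 8 arrays that share one scaling, so they only describe these arrays. Commd3 and Commd8, both with the E-box, had r = 0.71, and Commd9 had r = 0.43 with Commd3 and 0.25 with Commd8. Commd4, the gene with the highest coefficient to Commd8, has no CACGTG in its window. A link between the motif and these coefficients was not tested. Each relative was centred on its mean over the arrays, and the median of the 8 per array came to -0.04, -0.01, -0.04 and 0.08 in TBC1D4-deficient replicates 1 to 4, against 0.00046, -0.03, 0.04 and 0.0055 in wild-type replicates 1 to 4. In this median the genotypes overlap.

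Among 9120 other named genes at or above the median level, the log2 levels most like those of Commd6 over the 8 arrays belonged to Iqgap1, a scaffold of the actin cytoskeleton (r = 0.96), Nup205, a nuclear pore protein (0.92), Phf23 (0.92), Tm2d2 (0.91) and Pxmp2, a peroxisomal membrane channel (0.91). The lowest coefficients were those of Adgre5, an adhesion receptor of leukocytes (-0.95), Tbc1d4 (-0.93) and Uchl3 (-0.91). In levels, a gene that differs between genotypes is favoured. With deviations from the genotype means, the most like were Tent4b (0.99), Ddx21 (0.98), Arfgef3 (0.98), Orc5 (0.98) and Arid4b (0.98). The least like were Fam25c (-0.98), Capzb, a subunit of the actin capping protein (-0.98), and Tmem141 (-0.97). No COMMD gene was among either set. These are the extremes of 9120 genes over 8 arrays, so strong coefficients and the absence of 8 relatives are the usual case. Phf23 (3.76), Pxmp2 (3.64) and Adgre5 (3.71) had mean log2 levels close to the median of 3.58.

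The measured genes beside Commd6 on chromosome 14 gave smaller differences or the opposite sign. The 10 nearest annotated genes on either side of Tbc1d4 included 4 protein-coding genes with a probe set, Prr30 on one side and Commd6, Uchl3 and Lmo7 in this order on the other. Uchl3, a ubiquitin hydrolase and the next such gene beyond Commd6, measured 6.61, 6.61, 6.68 and 6.69 on the log2 scale in TBC1D4-deficient arrays, against 6.78, 6.71, 6.82 and 6.72 in wild-type arrays. All its TBC1D4-deficient arrays lay below the wild-type arrays, opposite to Commd6, by a narrow margin. Its log2 difference was -0.11 (95% interval -0.24 to 0.02) and did not pass (limma adjusted p = 0.9999). Downward separation of the groups was found for 0.907% of all probe sets.

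Lmo7, an adaptor of cell junctions, measured 6.26, 6.31, 6.35 and 6.26 on the log2 scale in TBC1D4-deficient arrays, against 6.46, 6.29, 6.08 and 6.25 in wild-type arrays, and the wild-type range enclosed the other. Its log2 difference was 0.02 (95% interval -0.15 to 0.20). Prr30, at 2.65 ± 0.12 in wild-type arrays and below the median level of the probe sets, had a log2 difference of 0.07 (-0.11 to 0.24). A wider set, the 10 nearest measured protein-coding genes on either side, was taken after the data were seen. Without Commd6 it held 19 genes, 7 above and 12 below 0, from -0.22 for Mzt1 to 0.18 for Bora, with a median of -0.03. Of these, 0 passed the threshold, against 0.00434% of all probe sets. In 18 of the 19 the 95% interval ended below the difference of Commd6, the exception being Bora, whose interval reached 0.46. Since Commd6 was picked as high, this is the usual case for a gene, and the share over all genes was not counted. The labels and files name neither the deleted part of Tbc1d4 nor the exons of Commd6 that its probe set covers.

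**Figure D3:**
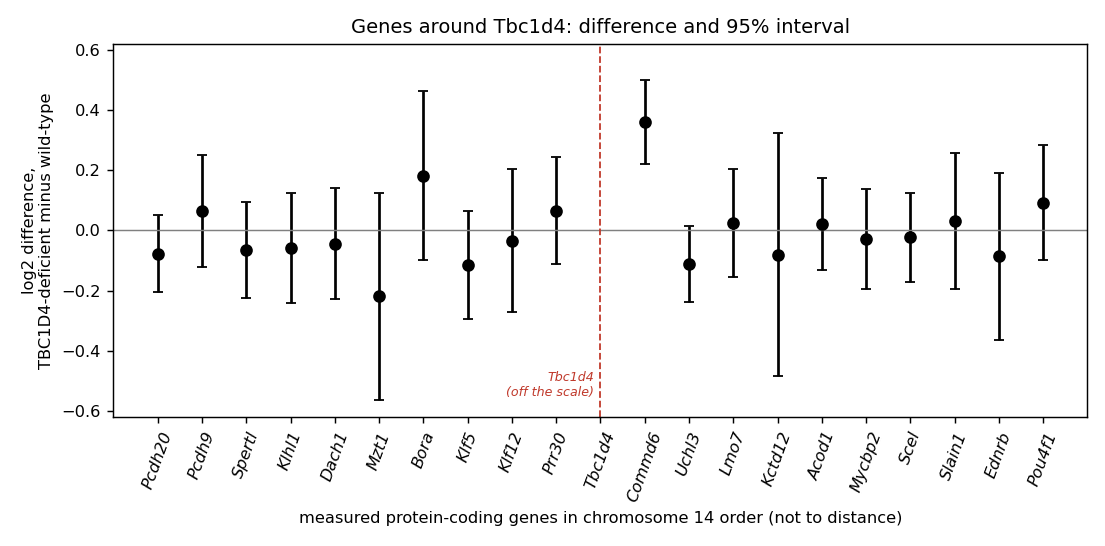
Log2 difference (TBC1D4-deficient minus wild-type, vertical axis) with limma 95% intervals for the 10 nearest measured protein-coding genes on either side of Tbc1d4, in chromosome order and not to distance (horizontal axis). Commd6 stands at 0.36, its neighbour Uchl3 at -0.11, and 19 of the 20 intervals include 0. Tbc1d4, at -4.27, is off the scale.

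The complexes in which COMMD proteins work were counted next, from lists that gave 51 genes, of which 48 were measured. None of the 48 passed (limma adjusted p = 0.9999 for each), against 0.00434% of all probe sets. At an unadjusted limma p below 0.05 there were 0, against 2.9% of all probe sets, so both counts are near the background. Of the 48, 22 lay above and 26 below 0, and the median log2 difference was -0.0095. In 46 of the 48 the 95% interval ended below the difference of Commd6, the exceptions being Vps26c and Lrp2. Here too the share over all genes was not counted.

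Of the CCC complex and Retriever, 5 of 6 genes were measured, 2 above and 3 below 0. Ccdc22 is read by a probe set shared with other genes and is not described. Ccdc93, the other coiled-coil subunit, had a log2 difference of -0.02 (95% interval -0.18 to 0.15), and Dennd10, a further CCC subunit, of -0.07 (-0.22 to 0.09). For Vps35l, the scaffold of Retriever, the log2 difference was 0.0037 (-0.14 to 0.15). Vps29, a subunit that Retriever shares with retromer, stood at a log2 difference of -0.07 (-0.19 to 0.06). Vps26c, the third Retriever subunit, measured 6.49, 6.42, 6.39 and 6.40 on the log2 scale in TBC1D4-deficient arrays, against 6.20, 6.01, 6.37 and 6.58 in wild-type arrays. The wild-type arrays alone were spread, on both sides of the TBC1D4-deficient ones, and the log2 difference was 0.14 (-0.10 to 0.38).

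Retromer and its sorting nexins, a parallel recycling route, had 7 of 9 genes above and 2 below 0, with a median log2 difference of 0.0073. Snx1 and Snx3 had the largest differences of the list, 0.11 (95% interval -0.03 to 0.26) and 0.10 (-0.05 to 0.26). Vps35, the retromer scaffold, stood at -0.06 and Snx5 at 0.04. The WASH complex, which builds actin on endosomes and recruits the CCC complex, had 2 genes above and 3 below 0. Its Washc3 measured 6.48, 6.58, 6.62 and 6.70 on the log2 scale in TBC1D4-deficient arrays, against 6.67, 6.80, 6.74 and 6.74 in wild-type arrays. One TBC1D4-deficient array reached into the wild-type range, and the log2 difference was -0.14 (-0.28 to 0.0061). Washc5, Washc4 and Washc2 stood at -0.04, -0.03 and 0.03. The Retriever adaptors Snx17 and Snx31 stood at log2 differences of -0.03 and -0.10.

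Cargo and clients reported for COMMD proteins or the CCC complex numbered 13 measured genes, 6 above and 7 below 0. The epithelial sodium channel, which COMMD1 removes from the cell surface, gave differences in opposite directions for its subunits. Scnn1a measured 9.98, 10.01, 10.08 and 10.07 on the log2 scale in TBC1D4-deficient arrays, against 9.82, 10.06, 9.83 and 9.90 in wild-type arrays. One wild-type array, replicate 2, lay among the TBC1D4-deficient ones, and the log2 difference was 0.14 (95% interval -0.02 to 0.29). Scnn1b stood at -0.15 (-0.36 to 0.06). Slc12a2, the NKCC1 cotransporter, stood at 0.12 (-0.04 to 0.28). Lrp2 (megalin), an endocytic receptor of the proximal tubule, had the widest interval, at -0.35 (-1.11 to 0.40), and it is also one of the proximal tubule markers, whose mean varied between arrays from -1.06 to 0.80.

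The partners of COMMD1 in NF-kappaB and hypoxia signalling had 5 genes above and 9 below 0 of 14 measured. Rela, the subunit that COMMD1 marks for degradation, had a log2 difference of 0.10 (95% interval -0.06 to 0.27). Nfkbib and Nfkbia, inhibitors of NF-kappaB, stood at -0.10 (-0.26 to 0.07) and -0.19 (-0.55 to 0.17), and Cul2, the cullin of the ligase that COMMD1 assists, at -0.07 (-0.22 to 0.07).

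**Figure D4:**
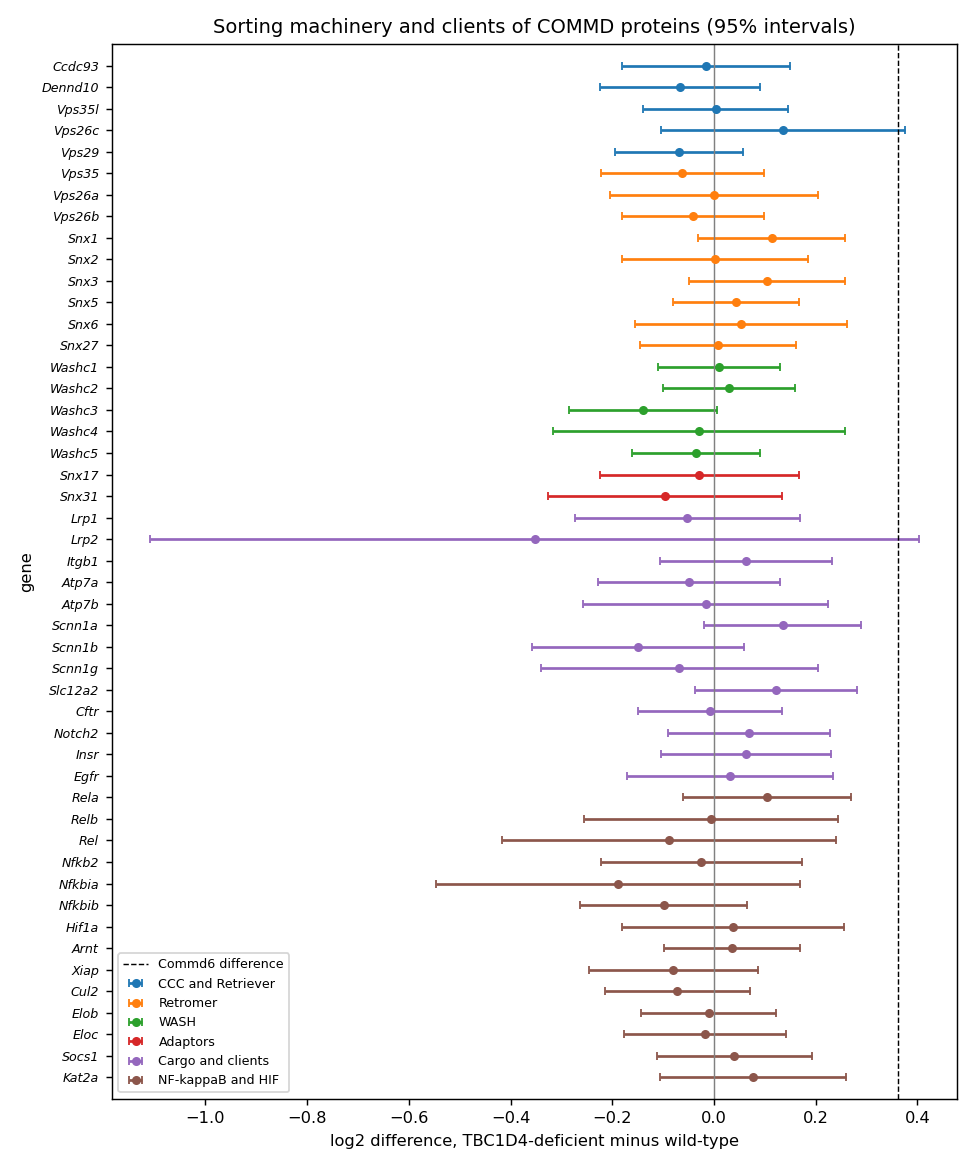
Log2 difference (TBC1D4-deficient minus wild-type, horizontal axis) with limma 95% intervals for the 48 measured partner genes (vertical axis), coloured by list, with the difference of Commd6 as a dashed line. All 48 intervals include 0, and those of Vps26c and Lrp2 reach the dashed line.

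Sorted tubules carry RNA of other cells, and the marker lists moved with some of these values. In bulk samples, fewer cells of a type and less RNA per cell cannot be told apart. Of all 18782 genes, 9459 had lower means in TBC1D4-deficient than in wild-type arrays. Lower were 5 of 5 principal cell, 5 of 6 intercalated cell and 4 of 5 thick ascending limb markers. So were 6 of 7 fibroblast and mural, 2 of 9 DCT, 2 of 4 podocyte and 3 of 7 immune markers. All 13 endothelial markers, 7 of them below the median level of the probe sets, were lower as well. Their summed intensity was 151.8 to 199.4 in TBC1D4-deficient and 207.2 to 229.8 in wild-type arrays. On the log2 scale, with each gene centred over the 8 arrays, this list averaged -0.38, -0.03, 0.0013 and -0.15 in TBC1D4-deficient replicates 1 to 4, against 0.12, 0.03, 0.21 and 0.20 in wild-type replicates 1 to 4. The endothelial mean, like Commd6, separated the genotypes, in the opposite direction. Their log2 levels had r = -0.81 over the 8 arrays, the strongest coefficient with this mean among the 9 members. In levels, a gene that separates the genotypes is favoured, and Commd6 was picked for its genotype difference. The coefficient between deviations from the genotype means was not computed for this mean. With the endothelial mean as a covariate the log2 difference of Commd6 was 0.31 (SE 0.10), against 0.36 (SE 0.06) without it. For Commd9 and Commd5 this covariate gave 0.13 and -0.17, with neither past the threshold. The part of endothelial RNA in the difference of Commd6 was not tested.

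Proximal tubule markers were lower in mean for 12 of 12 genes, with summed intensities of 955 to 2442 in TBC1D4-deficient and 1341 to 3380 in wild-type arrays. TBC1D4-deficient replicate 1 had the lowest mean of the 12 genes (-1.06) and the highest Commd6, and the groups overlapped in this mean. With this mean as a covariate the log2 difference of Commd6 was 0.35 (SE 0.07), and without TBC1D4-deficient replicate 1 it was 0.33 (SE 0.06). Among the members, the log2 level of Commd3 had the highest coefficient with the proximal tubule mean, r = 0.76 over 8 arrays, beside 0.64 for Commd9, -0.39 for Commd6 and -0.58 for Commd5. The part of proximal tubule RNA in these levels was not tested.

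**Figure D5:**
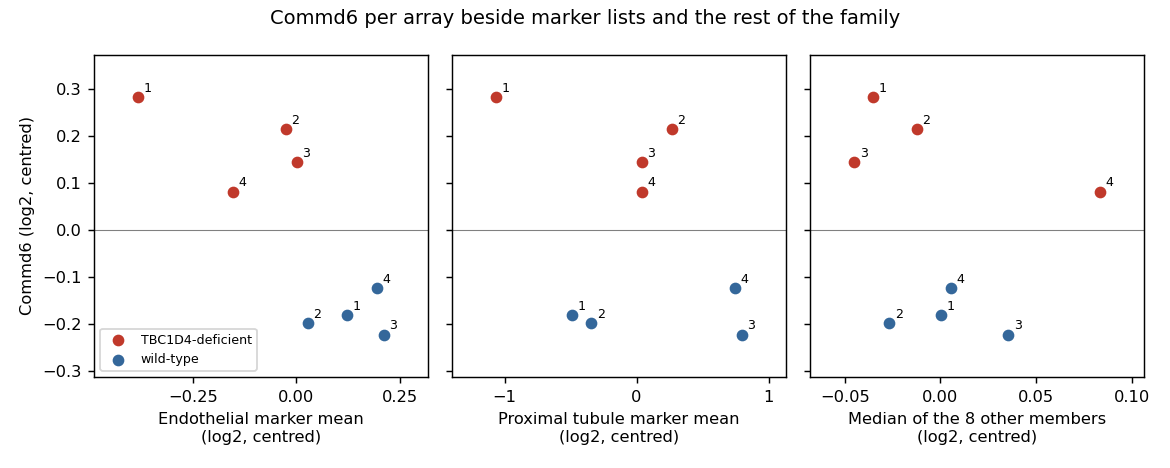
Log2 level of Commd6 centred over the 8 arrays (vertical axis) against the endothelial marker mean, the proximal tubule marker mean and the median of the 8 other COMMD genes (horizontal axes, log2, centred), for TBC1D4-deficient (red) and wild-type (blue) arrays with their replicate numbers. Commd6 separates the genotypes from 0.08 upward and -0.12 downward. The endothelial mean also separates them, being lower in the TBC1D4-deficient arrays, while the proximal tubule mean and the family median overlap between them.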

How the data were processed

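Per the labels' protocols, 100 ng of RNA per sample went into labelled cDNA. The submitters' processing notes name Affymetrix Power Tools; its version, summarisation and normalization were not stated. The authors deposited linear probe set intensities with similar medians (8.41 to 9.03), so a shift common to most genes could not be seen, and there is no detection call.

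Samples were grouped by their titles. The log2 of the intensity was taken with no pseudocount, filter or further normalization. The test was limma 3.58.1 (R 4.3.3), with lmFit, eBayes and genotype alone in the design, 2-sided, over 23039 probe sets that had at least 1 symbol, with Benjamini-Hochberg adjustment over all of them and a threshold of 0.05. For arrays, their number (4 a group) limits the precision. Symbols came from the platform annotation; 21128 of 21158 probe sets with 1 symbol matched RefSeq by gene identifier. The fit was tested on simulated data.

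The COMMD members, partner and marker lists were chosen with earlier results of these data known. Named are all members, neighbours among the 10 nearest genes on either side of Tbc1d4, all measured CCC and Retriever genes, up to 4 genes with the smallest p of each other list, and the genes with the 5 highest and 3 lowest correlations to Commd6. Marker genes, Mzt1 and Bora are named outside this rule, the last pair after their values were seen. Alternatives covered filters, rows tested, normalization, pseudocount, eBayes prior, weights, covariates and left-out arrays.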

Additional observations from a re-analysis of the deposited data

How the results depend on the processing

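Commd6 was higher in TBC1D4-deficient tubules under all 23 alternatives, with log2 differences of 0.31 to 0.40, and 0.33 to 0.39 when each array was left out in turn. Commd6 was picked for this difference and its groups do not overlap, so leaving out arrays could not change its sign. These values only describe how the size of the difference varied. Each alternative gave a count of 1 probe set past the threshold and 0 of the 8 other COMMD probe sets, and Tbc1d4 passed in each. The median of these 8 lay between -0.02 and 0.04, below 0 within the arrays numbered 9 to 12 and without TBC1D4-deficient replicate 4 (-0.02 each) and without wild-type replicate 2 (-0.0096). Of 184 values of the 8 genes under alternatives, 22 changed sign, 2 moved by more than the replicate SD and 0 passed. With the replicate number as a block, Commd6 stood at 0.36 (SE 0.07), the median of the others at 0.02 and the count at 1. Same-numbered arrays did not steadily deviate together (r = 0.40, -0.19, 0.04 and 0.01 for replicates 1 to 4). In each genotype, 1 of 4 arrays correlated best with its own number. These values gave no ground to pair the samples by number, though they cannot exclude a pairing. The second number of the descriptions, as a covariate, gave 0.38 for Commd6. With 1 probe set a gene and no detection call, none of these alternatives checks the probes themselves.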
